A study of Homo sapiens with 5 samples.

Results

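The genes described here belong to the breakdown of heme, the making of heme and the handling of iron: HMOX1, HMOX2, BLVRA, BLVRB, ALAS1, FECH, TFRC, SLC40A1, FTH1 and FTL. They were chosen by name, as the rows of the deposited table whose platform annotation carries 1 of these 10 symbols. Probe sets naming 1 gene alone covered 8 of them, on 15 of 22215 probe sets, and those 8 stand among 12165 genes so named. SLC40A1 and FTH1 were not analysed here because no probe set carries either symbol alone. The 568 probe sets whose annotation names several genes were not matched to the 10.

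By the array titles the cells were LNCaP, an established line of androgen-responsive human prostate cancer cells kept in RPMI medium with serum. They received celastrol, a plant triterpenoid, at 1.25 µM for 6 h (2 arrays, replicates 1 and 2), or the solvent DMSO for 6 h (3 arrays, replicates 1 to 3), and no group carried a genetic change made for the study. The titles thus give 1 cell line, 1 celastrol dose and 1 time, and they call the replicates of each group biological. The profile of DMSO replicate 3 was not LNCaP-like, as described below. The description field of the DMSO arrays names celastrol, and grouping followed their titles and treatment protocol.

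Heme is an iron-holding ring that heme oxygenases open into biliverdin, carbon monoxide and free iron, and biliverdin reductases then turn biliverdin into bilirubin. Synthesis runs the other way, from a rate-limiting step catalysed by aminolevulinate synthase in mitochondria to the insertion of iron by ferrochelatase. Iron enters most cells through the transferrin receptor, is stored in ferritin and leaves through ferroportin, the product of SLC40A1. HMOX1 is known as a gene that oxidants, heme and heavy metals induce through the transcription factor NRF2, against repression by the heme-binding factor BACH1. Iron-regulatory proteins bind hairpins called iron-responsive elements, which slow the translation of ferritin mRNA and protect TFRC mRNA from decay.

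The promoter windows of RefSeq (build GRCh38.p14), which run from 250 bases before to 50 bases after a gene's start, covered 8 of the 10 genes, in 9 windows. HMOX1 and FTH1 had no entry. The stretches below show the sites that matched a searched motif, written 5′ to 3′ with the match in capitals, because these are the elements by which oxidant and iron signals are known to act. FTL carried an iron-responsive element match in the 30 bases that end its window, from base 21 to base 50 after the start, at chr19:48965329-48965358 on the + strand. FECH carried the core of an antioxidant response element in the 60 bases before its start, at chr18:57586703-57586762 on the - strand. ABCB6, a porphyrin transporter gene outside the 10 that is described further on, carried the same core in a stretch at chr2:219219077-219219136 on the - strand. It had the smallest p of the wider list given there and was the only gene of that list searched for motifs.
FTL: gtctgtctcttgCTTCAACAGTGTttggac
FECH: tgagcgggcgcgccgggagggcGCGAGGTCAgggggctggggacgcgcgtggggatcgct
ABCB6: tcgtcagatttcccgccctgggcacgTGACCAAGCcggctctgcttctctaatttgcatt

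The antioxidant core was searched as TGACNNNGC on both strands and was present in 13.3% of all 35116 windows, so a match is common. The iron-responsive element was searched by its bulge and loop letters (loop CAGTGN) on the sense strand of the 50 transcribed bases. It was present in 1.67% of windows. Elements further along a transcript, of TFRC or any other gene, lay outside this search. A search for the composite element of ATF4 (TGATGNAA, both strands, 3.62% of windows) and for the heat shock element found no match in the windows of the 8 genes. The heat shock element, searched as 3 alternating units on both strands, occurred in 0.49% of windows. The shifted form is the same pattern read on the opposite strand, so it was not a separate search. Such matches describe letters only.

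Total intensity lay between 4939400 and 5348500 on the 5 arrays, and their small number sets how precise any value here can be. The array labelled DMSO replicate 3 correlated with the other 4 at r = 0.843 to 0.844 over probe sets, against 0.994 to 0.998 among those 4. All 8 measured markers of luminal prostate cells, of 12 listed, were over 2-fold lower on it, with KLK3 at 4.56 against 10.07 to 10.89 elsewhere, while 6 of 9 lymphoid markers were over 2-fold higher. It was therefore kept out of the comparison and is shown apart. On the other 4 arrays the luminal markers had median levels of 9.81 to 9.96. All 7 measured erythroid markers stayed below 5 there, with a summed intensity of 129 to 131 with celastrol and 130.2 to 130.9 with DMSO. The median over all probe sets was 4.90 to 4.92 on these 4 arrays, so a level below 5 is common. Of 7 macrophage markers, 5 stayed below 5, and the summed intensity was 155 to 158 with celastrol and 155 to 159 with DMSO. Levels are given as log2(intensity + 1). A difference is the celastrol mean less the DMSO mean of these levels, and for dim genes it is smaller than the true change. Levels of different probe sets cannot be compared with each other.

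Heme breakdown was where the clear change lay. HMOX1, the inducible heme oxygenase, rose by 5.94 with celastrol, while among the constitutive heme oxygenase gene HMOX2 and both biliverdin reductase genes the largest difference was 0.20, for BLVRB. On the HMOX1 probe set (203665_at) the levels were 11.94 and 12.24 on celastrol replicates 1 and 2, and 5.98 and 6.33 on DMSO replicates 1 and 2. In intensity that was 3924 and 4853 against 61.9 and 79.2. The celastrol arrays lay far above both DMSO arrays, and the arrays within a group differed by at most 0.35. The group means were 12.09 ± 0.217 (SD, n = 2) and 6.15 ± 0.247 (SD, n = 2). The difference had an SE of 0.187 and corresponds to 61.4-fold on the scale of intensity + 1, with a 95% interval from 41.2-fold to 91.6-fold. It passed the threshold in limma with Benjamini-Hochberg adjustment over 13329 probe sets (adjusted p = 0.03). In bulk RNA, more cells with the transcript and more transcript per cell cannot be told apart.

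**Figure D1:**
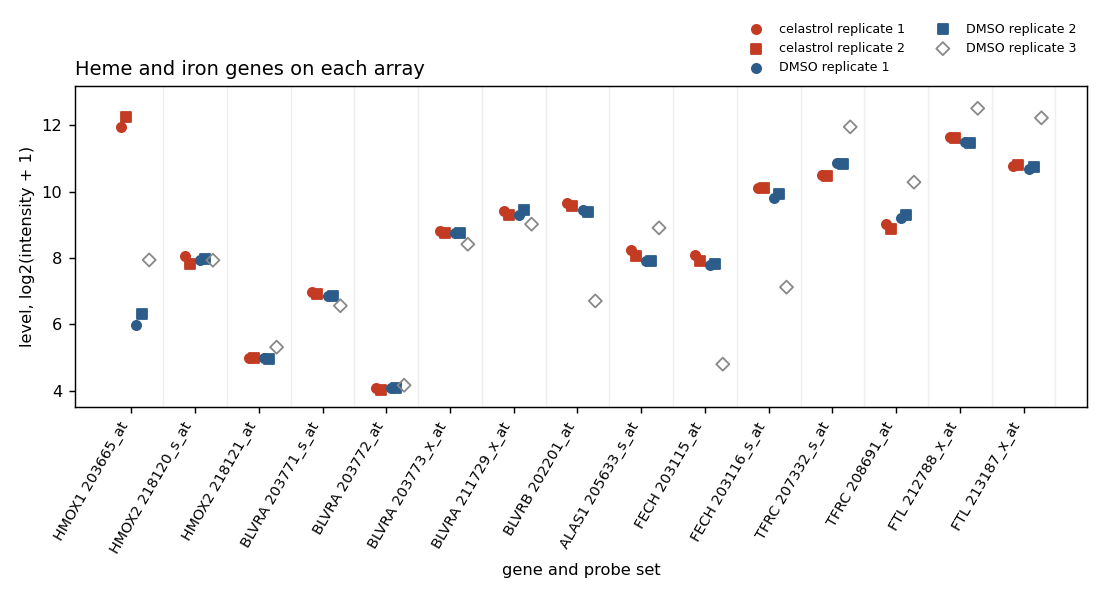
Level of every probe set of the 8 measured genes on each array, as log2(intensity + 1); filled red marks are celastrol arrays, filled blue marks DMSO replicates 1 and 2, and open grey diamonds DMSO replicate 3. HMOX1 alone separates widely, at 11.94 and 12.24 with celastrol against 5.98 and 6.33, while the other genes stay close on the 4 compared arrays and DMSO replicate 3 stands off for most of them.

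Of the 13329 probe sets tested, 0.975% were called, 0.54% higher and 0.435% lower, and HMOX1 was the 1 member probe set called among the 14 that passed the filter on dim probe sets. The call was lost in several other fits, while the difference stayed between 5.34 and 6.12 in all of them. With no filter the limma adjusted p was 0.0622 in a fit that called 0.009% of probe sets, with the replicate number as a block 0.0867, with DMSO replicate 3 included 0.854 (difference 5.34), and with any 1 of the 4 arrays left out 0.105 to 0.137, at differences of 5.77 to 6.12. An exact permutation test of 2 against 2 arrays cannot go below p = 0.333. HMOX1 had the largest rise of the 8108 genes kept. The 3 genes next in size were CBR3, a carbonyl reductase gene, at 2.41, HSPA1B, an inducible HSP70 gene, at 2.37, and BAG3, which encodes a cochaperone of HSP70, at 2.27.

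**Figure D2:**
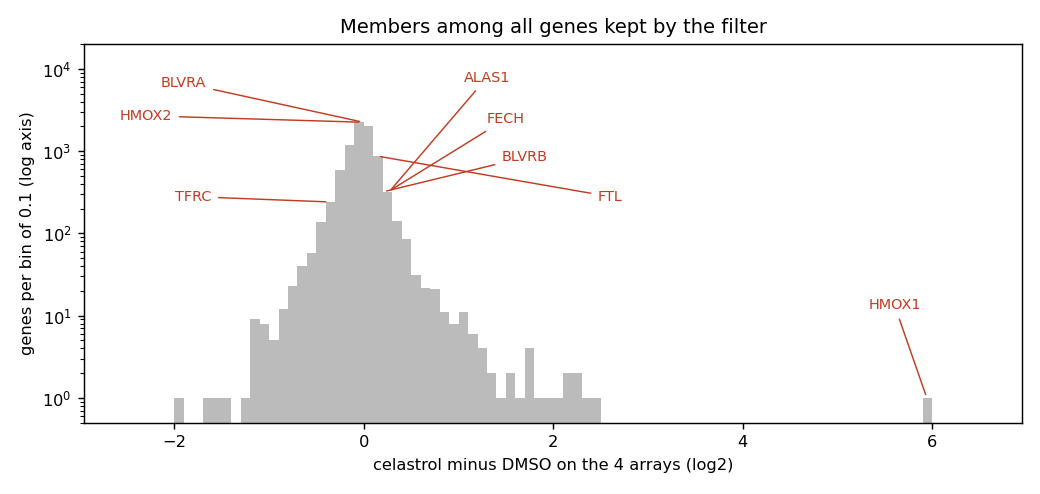
Number of genes per bin of difference (celastrol minus DMSO, log2, bins of 0.1, log count axis) for the 8108 genes kept, 1 probe set a gene, with the measured heme and iron genes marked. HMOX1, at 5.94, stands beyond CBR3, the next gene at 2.41, and the other 7 lie between -0.36 and 0.27.

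HMOX2, the constitutive heme oxygenase gene, was measured by a pair of probe sets. On 218120_s_at it stood at 8.05 and 7.81 with celastrol and at 7.93 and 7.96 with DMSO, so the celastrol arrays lay on either side of the DMSO arrays. The difference was -0.02 with a 95% interval from -0.32 to 0.29 (limma adjusted p = 0.935). The other probe set, 218121_at, was dim, with 4.98 on 3 arrays and 4.95 on DMSO replicate 2, and its difference of 0.02 had an interval from -0.07 to 0.11 (limma adjusted p = 0.74). The interval of the brighter probe set leaves room for changes from -20.0% to 21.9%, far from that of HMOX1.

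BLVRA encodes the reductase that makes bilirubin from biliverdin, and 4 probe sets named it. Its brightest, 211729_x_at, read 9.43 and 9.31 with celastrol and 9.31 and 9.44 with DMSO, a difference of -0.01 with an interval from -0.23 to 0.22. The probe set 203773_x_at read 8.81 and 8.75 against 8.75 and 8.75, and 203771_s_at read 6.96 and 6.91 against 6.85 and 6.85. Only the last of these 3 had groups that did not overlap, and its difference was 0.08 (limma adjusted p = 0.349). The fourth, 203772_at, lay at 4.03 to 4.07, did not pass the filter and was not tested. Some of these values were identical between arrays to 4 decimals, within the DMSO group on 203771_s_at and across the groups on both _x_at sets.

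BLVRB encodes a second reductase that acts on flavins and on other biliverdin isomers. Its probe set, 202201_at, read 9.67 and 9.58 with celastrol and 9.44 and 9.40 with DMSO. The celastrol arrays were both higher, by 0.20 on average (SE 0.047, 95% interval 0.06 to 0.35), which is 15.1%, and the limma adjusted p was 0.173.

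In heme synthesis, ALAS1 and FECH were slightly higher with celastrol without passing the threshold. Of 5 further enzymes given below 4 were on the lower side, where 42.2% of all genes kept were above 0. The groups overlapped for each of these 5. ALAS1 encodes the housekeeping form of the rate-limiting enzyme, which heme represses. It stood at 8.25 and 8.07 on the celastrol arrays and at 7.90 on both DMSO arrays. Both celastrol arrays were above the DMSO level, and the difference of 0.27 (SE 0.0766, 95% interval 0.03 to 0.50) was 20.3% (limma adjusted p = 0.23). The arrays of the celastrol group differed by 0.18, while the DMSO arrays were equal to 4 decimals.

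FECH encodes ferrochelatase, which places iron in the porphyrin ring. On 203116_s_at the levels were 10.13 and 10.10 with celastrol and 9.80 and 9.92 with DMSO, and on 203115_at they were 8.08 and 7.92 against 7.78 and 7.81. Celastrol was higher without overlap on both probe sets, by 0.25 (SE 0.0565) and 0.21 (SE 0.0717). With 1 array left out the difference ran from 0.19 to 0.32 on the former and from 0.12 to 0.29 on the latter, lowest there without celastrol replicate 1. The limma adjusted p were 0.166 and 0.291. The 2 probe sets read 1 gene and are not replicates.

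For iron uptake and storage the differences were small and did not pass the threshold, with the receptor lower and ferritin light chain slightly higher. TFRC encodes the transferrin receptor, through which iron bound to transferrin is taken up. On 207332_s_at it read 10.51 and 10.47 with celastrol and 10.85 and 10.84 with DMSO, so the groups lay well apart and each was tight. The difference was -0.36 (SE 0.0307, 95% interval -0.46 to -0.27), that is -22.2%, at limma adjusted p = 0.0601. On 208691_at the levels were 9.03 and 8.87 against 9.20 and 9.29, again with no overlap, and the difference was -0.30 (SE 0.0791, limma adjusted p = 0.206). The brighter TFRC probe set passed the threshold in 3 other limma fits, at adjusted p = 0.0398 with the dimmest 60% left out, 0.0407 after quantile normalization and 0.0482 with a variance trend. It did not pass in the rest, among them 0.0949 with no filter, 0.206 with the replicate block, 0.121 to 0.138 with 1 array left out and 0.854 with DMSO replicate 3 included.

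FTL encodes the light chain of ferritin, and its mRNA carries the iron-responsive element shown above. On 212788_x_at it stood at 11.65 and 11.61 with celastrol and at 11.51 and 11.47 with DMSO, and on 213187_x_at at 10.78 and 10.80 against 10.68 and 10.74. Celastrol was higher without overlap on both, by 0.14 (SE 0.0333, 10.0% higher) and 0.08 (SE 0.0368, 5.93% higher), and neither passed (limma adjusted p = 0.182 and 0.388). The ending _x_at marks probes that may also bind near-identical transcripts, so these values can hold signal of ferritin pseudogenes. Both _x_at sets of BLVRA share this limit, and the rank of BLVRA given below rests on 211729_x_at. For the heavy chain of ferritin only the pseudogene FTH1P5 was looked up, on 211628_x_at, and this was done after other values had been seen. It read 10.88 and 10.87 with celastrol and 10.45 and 10.53 with DMSO, a difference of 0.38 (SE 0.043, limma adjusted p = 0.0792). Signal of FTH1 on that probe set cannot be told apart from its own.

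**Figure D3:**
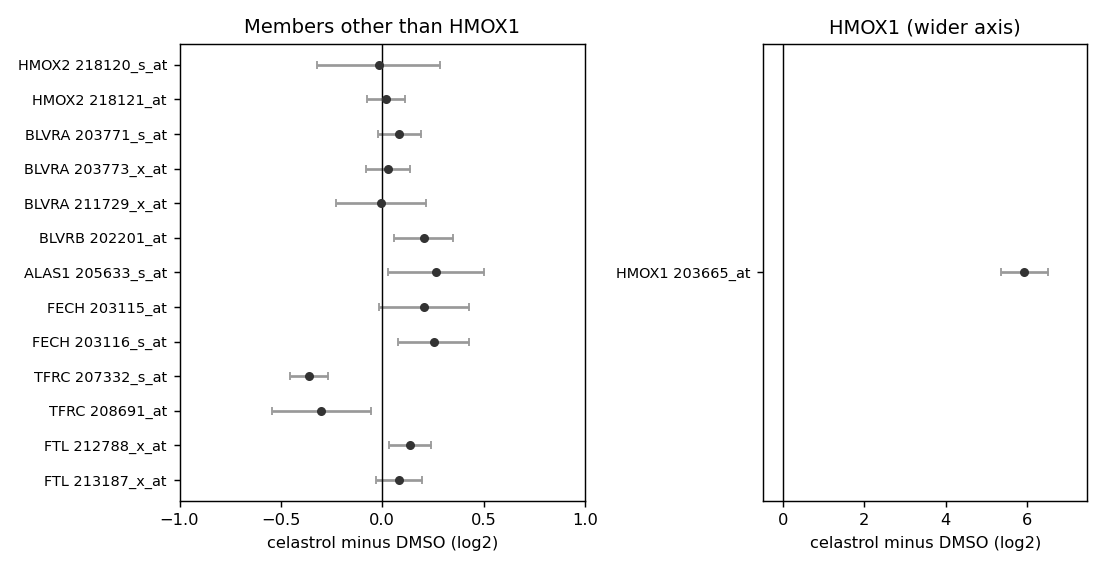
Difference between celastrol and DMSO arrays (log2) for the 14 member probe sets tested, with 95% intervals from the limma fit of 2 against 2 arrays; HMOX1 has a panel with a wider axis. The 13 probe sets of the other 7 genes lie between -0.36 and 0.27, with TFRC on the lower side, and HMOX1 lies at 5.94.

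Across the 14 tested member probe sets 10 differences were above 0 and 4 below, with a median of 0.08, while over all 13329 the median was -0.02 and 42.3% were above 0. Celastrol was higher without overlap on 8 of the 14 and lower on 2, and over all tested probe sets the shares were 16.1% and 25.7%. Before adjustment, the limma p was under 0.05 for 5 on the higher side and 2 on the lower side, where all tested probe sets gave 7.17% and 11.6%. The 8 probe sets come from 6 genes, because FECH and FTL have a pair each. The members were chosen with earlier results of these data known, so these counts are no test of the set. Leaving HMOX1 aside, the 13 intervals ran from -0.54 to 0.50, and the highest upper bound, that of ALAS1, was 1.42-fold. Among the 8108 genes kept, ALAS1 ranked at 5.32% from the top, FECH at 5.85%, BLVRB at 8.26% and FTL at 13.7%, TFRC at 4.6% from the bottom, and BLVRA and HMOX2 near the middle.

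On DMSO replicate 3 the genes had another profile. HMOX1 stood at 7.94 there, 1.79 above the mean of DMSO replicates 1 and 2 and still below both celastrol arrays. TFRC was higher by 1.11 and 1.04 on its probe sets, FTL by 1.02 and 1.52, and ALAS1 by 1.01. BLVRB was lower, with a difference of -2.71, and so was FECH, with -2.99 and -2.73, whereas the probe sets of HMOX2 and BLVRA differed from the other DMSO arrays by at most 0.35 in size. With this array included, the differences of ALAS1 and FTL changed sign, to -0.07 for ALAS1 and to -0.20 and -0.42 for FTL, and those of TFRC became -0.73 and -0.65. That of BLVRB went from 0.20 to 1.11, and those of FECH from 0.21 to 1.20 on 203115_at and from 0.25 to 1.17 on 203116_s_at. The part of the array's other cell profile in these values was not tested.

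A wider list of 55 other genes of heme and iron handling was examined in the same fit. Of these 42 were named alone on a probe set and 35 passed the dim filter. In limma 0 of the 35 were called, where 1.07% of all genes kept were called. At an unadjusted limma p under 0.05 there were 2 higher and 2 lower, where all genes kept gave 7.68% and 12.5%. The median difference was -0.02, the same as over all 8108 genes, and 15 genes were above 0 and 19 below. Groups did not overlap for 5 genes on the higher side and 10 on the lower side, against 16.3% and 26.5% of all genes kept.

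ABCB6, which encodes a transporter of porphyrins, had the smallest p of the list. It read 8.48 and 8.47 with celastrol and 7.81 and 7.89 with DMSO, and the arrays within a group were close while the groups lay apart. The difference of 0.62 (SE 0.0423) was 1.54-fold, and its limma adjusted p of 0.0504 missed the threshold. It passed with log2(value + 16), quantile normalization, median centring, a variance trend or the dimmest 60% left out, at limma adjusted p of 0.0153 to 0.0487. It did not pass in the rest, among them 0.0873 with no filter, 0.19 with the replicate block, 0.105 to 0.17 with 1 array left out and 0.854 with DMSO replicate 3 included. A dim probe set of the same gene, 203191_at, lay between 4.21 and 4.28 and did not pass the filter.

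The next on the higher side was BACH1, the heme-binding repressor of HMOX1, at 4.94 and 4.85 against 4.67 and 4.67, a difference of 0.23 at a dim level (limma adjusted p = 0.143). SLC48A1, a heme importer of endosomes and lysosomes, read 6.64 and 6.44 against 6.26 and 6.31 on its brightest probe set, a difference of 0.25 (limma adjusted p = 0.281). Its other probe sets differed by 0.28 and 0.31, also without overlap. HP, which encodes the hemoglobin-binding plasma protein haptoglobin, differed by 0.25 with an interval from -0.14 to 0.65. On the brightest probe set of each of these 3 genes both celastrol arrays lay above both DMSO arrays, and dimmer sets of BACH1 and HP overlapped.

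On the lower side NFS1, the cysteine desulfurase that supplies sulfur for iron-sulfur clusters, stood at 6.72 and 6.42 with celastrol against 7.05 and 7.17. Its difference of -0.54 had a wide interval, from -0.94 to -0.14 (limma adjusted p = 0.179). SLC39A8, which encodes a metal importer, read 8.64 and 8.44 against 8.99 and 8.86 and differed by -0.39 (limma adjusted p = 0.2), while its next brightest probe set differed by -0.13. HEBP1, a heme-binding protein gene, differed by -0.16 and STEAP1, of the metalloreductase family, by -0.12. All 4 genes were lower on both celastrol arrays, and none passed.

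By role, the 5 measured heme synthesis enzymes beyond ALAS1 and FECH, of 7 listed, had differences from -0.18 for PPOX to 0.02 for ALAS2, the erythroid form. ALAS1 and FECH stood above them in the order of differences, and whether the genes differ from one another was not tested. The 3 measured genes of iron-sulfur cluster assembly ran from -0.54 to 0.05, and the 6 tested sensors and regulators from -0.14 to 0.23. The 10 tested genes of iron uptake, reduction, storage and export ran from -0.39 to 0.09. CYBRD1, 1 of these 10, passed the dim filter only through DMSO replicate 3, where it stood at 7.83. On the 4 compared arrays CYBRD1 lay at 4.11 to 4.26. NCOA4, the receptor that carries ferritin to lysosomes, differed by 0.09, and EIF2AK1, the heme-regulated kinase, by -0.05. SLC11A2, an importer of ferrous iron, differed by 0.04. The 4 tested mitochondrial carriers and porphyrin transporters ran from -0.41 for SLC25A37 to 0.62 for ABCB6. The 7 tested genes of heme binding and transport ran from -0.16 to 0.25. None of the genes in these roles passed.

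**Figure D4:**
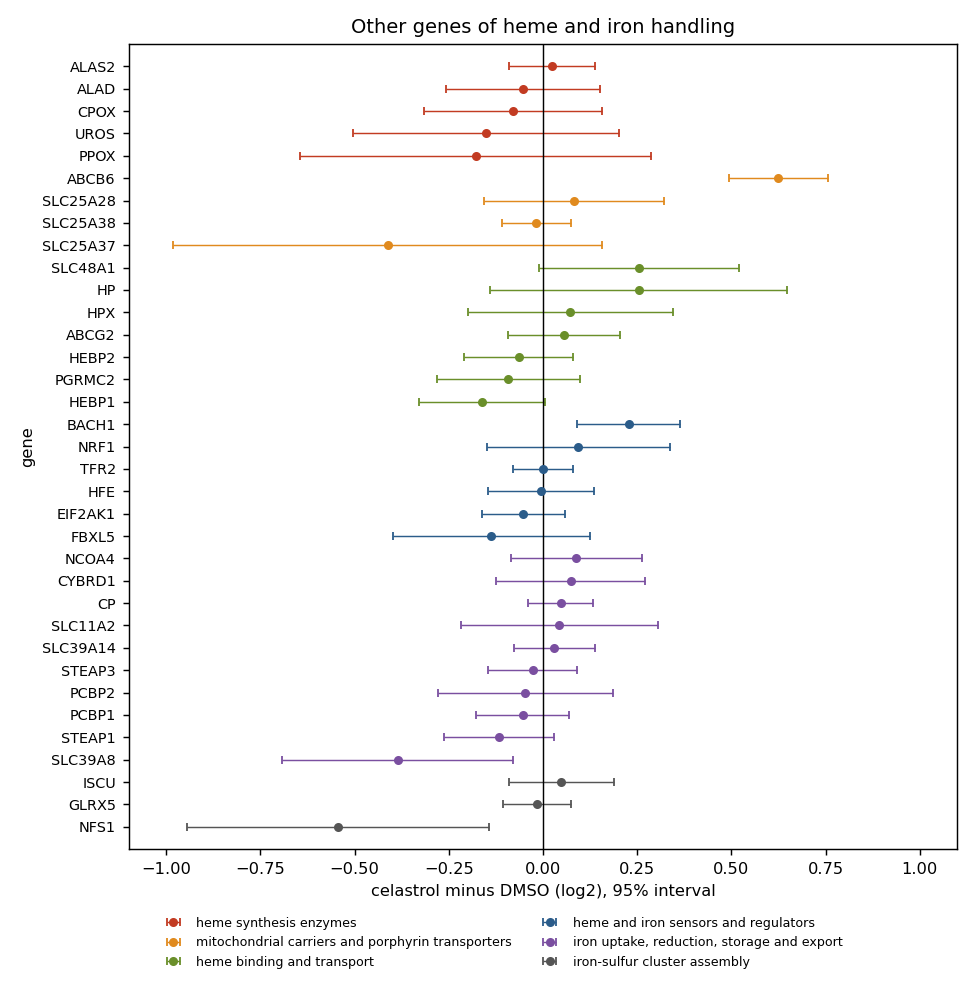
Difference between celastrol and DMSO arrays (log2, with 95% limma intervals, 2 against 2 arrays) for the 35 tested genes of the wider heme and iron list, coloured by role. ABCB6 stands highest at 0.62 and NFS1 lowest at -0.54, and all but 4 intervals include 0.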

How the data were processed

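Per the labels' protocols, RNA was isolated with Trizol and biotinylated cRNA was made for Affymetrix arrays. For each array the authors deposited the linear intensity of every probe set. Per the submitters' processing notes they used RMA; its version is not given in the sources used here. Intensities were log-transformed as log2(value + 1) and not normalized again. limma 3.58.1 in R 4.3.3 (lmFit, eBayes, two-sided) compared celastrol replicates 1 and 2 with DMSO replicates 1 and 2 on the 13329 probe sets left after removing the lowest 40% by mean over all 5 arrays. Benjamini-Hochberg adjustment ran over all of these, with a threshold of 0.05. Of 22215 probe sets 19724 name 1 gene, 568 several and 1923 none here; the Entrez look-up matched 19707 and changed 0 symbols. The members, the lists, the filter and the 4 arrays were chosen with earlier results of these data known. Named were all members, other listed genes that passed, the 4 of smallest p a side, and the 3 rises next to the largest. The wider list used the brightest probe set of each gene over the 4 arrays. The fit was tested on simulated data. The alternatives were other filters, pseudocounts, normalizations and variance models, a replicate block, DMSO replicate 3 included, and each array left out.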

Additional observations from a re-analysis of the deposited data

How the results depend on the processing

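The limma fit had 2 arrays a group and 2 residual degrees of freedom. Against 130 probe sets called, 0 were called with DMSO replicate 3 included (392 at an unadjusted p under 0.05), 2 with no filter, 31 and 319 with the dimmest 20% and 60% left out, 416 after quantile normalization, 307 after median centring, 0 with a replicate block (2098 unadjusted) and 0 without any 1 array (2749 to 2973 unadjusted). The deviations of same-numbered arrays correlated at r = -0.0197 over probe sets, so the numbers are not shown to pair the arrays. Member probe sets called, 1 in the fit described, numbered 0 with no filter (7 unadjusted), with DMSO replicate 3 included (1 unadjusted), with the replicate block (5 unadjusted) and without any 1 array (3 to 7 unadjusted), and 2 with the dimmest 60% left out, quantile normalization or a variance trend, HMOX1 and TFRC. Called genes of the wider list numbered 1 in place of 0, ABCB6, with the dimmest 60% left out, log2(value + 16), quantile normalization, median centring or a variance trend, and 0 without any 1 array (5 to 9 unadjusted).

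Differences that changed sign lay between -0.16 (HEBP1) and 0.27 (ALAS1) on the 4 arrays, and that of ALAS1 was the largest rise of a member after HMOX1. With DMSO replicate 3 included they were -0.10 for HMOX2 (218121_at), 0.11 for BLVRA (211729_x_at), -0.071 for ALAS1, -0.20 and -0.42 for FTL, 1.59 for HEBP1 and 2.13 for STEAP1. After quantile normalization and median centring they were 0.0047 and 0.0028 for HMOX2 (218120_s_at) and 0.0076 and 0.014 for BLVRA (211729_x_at). With 1 array left out, HMOX2 (218120_s_at) ran from -0.14 to 0.10, BLVRA (211729_x_at) from -0.070 to 0.056 and BLVRA (203773_x_at) from -0.0019 to 0.059. Of 239 differences under the other settings 217 kept direction and call, and with 1 array left out 4 of 88 changed sign. Other filters, other variance models and the replicate block left each difference as it was, so its direction could not change there. HMOX1 alone of the probe sets followed was called in the fit described, so for the rest keeping the call meant staying uncalled. The causes of the changes in sign and call were not tested.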
